A study of Drosophila melanogaster with 18 samples.

Results

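Scalloped (Sd) and Yorkie (Yki) are the DNA-binding protein and the coactivator at the end of the Hippo pathway, and the 2 proteins were profiled on chromatin of the fly eye-antennal disc, the larval tissue that forms the eye, the antenna and head cuticle. The comparison described here is the difference between them at each gene, taken as the log2 fold of Dam-Sd over its own Dam control minus the log2 fold of Yki-Dam over its own Dam control. A gene was measured as a window, its span in the dm6 genome with 1 kb on each side, and 14090 of 14195 windows held enough reads to be tested. The windows of sd and yki, the genes of the fused proteins, were set aside because the transgenes carry their sequence, so 14088 windows remained. Of these, 464 parted at an adjusted p below 0.05, 167 with more Sd than Yki and 297 with less.

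Sd is the fly member of the TEAD family and binds DNA directly, whereas Yki has no DNA-binding domain and reaches genes through Sd and other factors. The Hippo kinases hold Yki out of the nucleus, and nuclear Yki with Sd turns on genes of growth and survival. Without Yki, Sd can act with other cofactors and repress the same genes.

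In Targeted DamID a chromatin protein is expressed in fusion with the bacterial enzyme Dam, which marks nearby GATC sites with adenine methylation. Marked fragments are then amplified and sequenced, and Dam alone serves as the control. The comparison used 12 of the 18 libraries, in 4 groups of 3 replicates. The others were 3 libraries of Dam alone of Set 3 and 3 of Dam fused to another protein, Jra (Dam-Jra). All 18 were fitted together, so these others also entered the filter, the scaling and the estimate of spread. Discs of genotype Eyeless-Gal4 Gal80ts UAS-Dam-Sd were set against Eyeless-Gal4 Gal80ts UAS-Dam discs of Set 1, and Eyeless-Gal4 Gal80ts UAS-Yki-Dam discs against Eyeless-Gal4 Gal80ts UAS-Dam discs of Set 2, as the titles place them. Eyeless-Gal4 drives the transgenes in disc cells, and the temperature-sensitive repressor Gal80ts holds them off at 18 °C. Eggs were laid at 25 °C, and after 4 days at 18 °C all larvae spent 24 hours at 29 °C before their discs were taken, at the early L3 stage. Dam is written before Sd and after Yki in the genotypes, and each fusion belongs to its own set, so a difference between the proteins, the constructs and the sets cannot be told apart beyond what each set's own Dam libraries take out. Whether the replicates are independent crosses or share larvae is not in the labels, so the tests may see technical spread only.

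The libraries held 27.6 to 36.9 M reads in Dam-Sd (M, reads divided by 1e6), 30.6 to 40.97 M in Yki-Dam, 26.2 to 35.7 M in Dam of Set 1 and 21.4 to 27.0 M in Dam of Set 2. The Dam-Sd libraries were uneven in the strength of their signal. The SD over windows of the log2 ratio to the mean of their own Dam set was 1.62, 1.16 and 0.81 in Dam-Sd replicates 1 to 3, against 0.92, 0.87 and 0.84 in the Yki-Dam replicates. Dam-Sd replicate 3 was thus the weakest of its group. The windows of 7 eye-antennal markers (ey, toy, eya, so, dac, Dll and hth) were called higher than Dam in both fusions, 7 of 7 each, where 25.5% of all windows were in Sd and 21.1% in Yki. None of the 7 parted between them (differences 0.30 to 0.76, smallest adjusted p = 0.226). Their Dam-alone signal per GATC end lay high among all windows (median percentile 93.5).

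The question the comparison addresses is where the DNA-binding protein and its coactivator do not sit together. Most windows moved together. The log2 folds of both fusions had the same sign in 80.5% of windows, 87.3% of differences lay within 1 log2 unit of 0, and the median difference was -0.04. Of all 14090 tested windows 3.30% parted, 1.19% higher in Sd and 2.11% lower, by edgeR's quasi-likelihood test with Benjamini-Hochberg adjustment. The 297 lower windows formed 237 separate loci and the 167 higher ones 144. Where both fusions were called higher than Dam, 39 of 2452 windows parted (1.59%), and where both were called lower, 33 of 1537 did (2.15%). In each of the 464 windows the 3 Dam-Sd ratios lay apart from the 3 Yki-Dam ratios, as they did in 29.2% of all windows. A window averages over all driven cells, so occupancy in more cells and stronger occupancy per cell cannot be told apart. Of all windows 89.9% shared ends with another, so a difference can belong to a neighbour.

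The number of windows called differed strongly between fits. With only the comparison's 12 libraries in the fit 2 windows were higher and 8 lower, and leaving out Dam-Sd replicate 3, the library with the weakest signal, gave 1727 and 1031. Without Dam of Set 1 replicate 3 the counts were 43 and 93, and without Dam of Set 2 replicate 3 they were 56 and 87. Replicate numbers paired each fusion with its Dam set, and with the replicate number as a block 673 windows were higher (4.78%) and 677 lower (4.81%), 9.59% either way, among them 453 of the 464. All 464 differences kept their sign in each of the 12 fits that left out 1 library (a direction that the choice of these windows partly fixes), and 95 of them (38 higher and 57 lower) stayed called in all 12. Of the 56 called genes that the naming rule chose, Sos passed in 2 of those 12 fits, pb, MED1, CG32845, en and Hsp70Aa in 3 each, Caf1-55, Ace, CG17027, Pez, Hsp83 and trr in 4 each, CG12920 in 5 and lbl, Su(fu) and Bap55 in 6 each. With windows of 1 kb on each side of both gene ends only, a setting chosen after the data were seen, 17 of the 56 calls were lost. Lost calls that kept a difference beyond 0.3 in size were CG15890 (1.28, adjusted p = 0.0808), Dfd (1.15, 0.053), lbl (0.88, 0.259), Mvl (0.71, 0.16), pb (0.50, 0.399), CG46468 (0.33, 0.823), Hsp70Aa (-1.75, 0.067), cos (-1.39, 0.0723), RpL3 (-0.92, 0.0657), en (-0.87, 0.151), Pez (-0.72, 0.33), trr (-0.71, 0.231), qkr54B (-0.67, 0.278) and Hsp83 (-0.39, 0.532). Relative to other windows the balance also depended on scaling, since DESeq2 size factors moved the median of all windows to 0.15 and gave 274 higher and 177 lower.

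**Figure D1:**
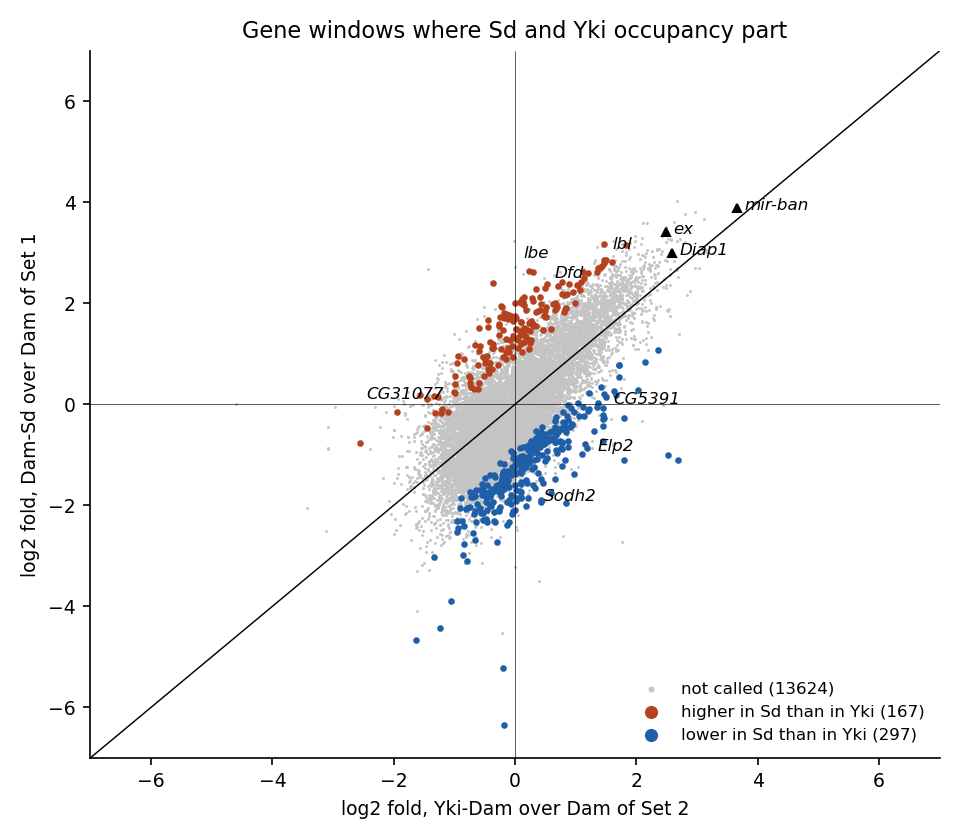
Log2 fold of Dam-Sd over Dam of Set 1 (vertical axis) against log2 fold of Yki-Dam over Dam of Set 2 (horizontal axis) for gene windows, each a point, with the line of equal folds. The 167 windows higher in Sd (red) lie above the line and the 297 lower ones (blue) below it, while ex, Diap1 and mir-ban (black triangles) lie among the windows not called. The blue points furthest below the line are windows of the Stellate repeats.

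Both fusions contributed to the windows that parted. Among the 167 higher windows, 104 were called higher than Dam in Sd and not called in Yki, 33 were higher in both, and 20 were not called in Sd and lower in Yki. In 9 of them Sd was higher and Yki lower than Dam, and in 1 both were lower. Among the 297 lower windows, 184 were lower than Dam in Sd and not called in Yki, 42 were higher than Dam in Yki and not called in Sd, and 33 were lower in Sd and higher in Yki. In 32 of them both were lower and in 6 both were higher. The median log2 fold of the higher windows was 1.54 in Dam-Sd and 0.06 in Yki-Dam, and that of the lower windows was -1.23 in Dam-Sd and 0.14 in Yki-Dam. These classes rest on the same libraries as the call and are a description. The folds were larger over all in Dam-Sd (SD over windows 1.08) than in Yki-Dam (0.81). After removing a slope of 1.34 all 464 differences kept their sign. The called differences closest to 0 were 0.88 and -0.86. The Yki folds of these windows were too small for that slope to turn any sign, so nothing follows from it.

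None of the 37 Hippo pathway targets parted in the main edgeR fit, where 4 had an unadjusted p below 0.05. DESeq2 called 2 higher, and with the block 3 were higher and 1 lower. Of all windows 21.3% had such an unadjusted p, DESeq2 called 5.79% higher and 3.07% lower, and with the block 4.78% were higher and 4.81% lower. Their median difference was 0.24, beside -0.04 over all windows, and 28 of 37 were called higher than Dam in each fusion. The window of ex (expanded, 2L:431227-448701), which encodes an upstream brake of the pathway and is a standard readout of Yki activity, held 5409, 4842 and 2069 CPM in the Dam-Sd libraries (CPM, reads in the window for each 1e6 reads of the TMM-scaled library) and 469.8, 390.1 and 296 CPM in their Dam libraries. It held 1961, 2479 and 2503 CPM in the Yki-Dam libraries and 424, 381 and 431 CPM in theirs. Both fusions stood far above Dam, and Dam-Sd replicate 3 fell inside the Yki-Dam range. The difference was 0.92 ± 0.37 (log2, SE) with an adjusted p of 0.153, and it passed with the replicate block (0.84, adjusted p = 0.049) and without Dam-Sd replicate 3 (1.43, adjusted p = 0.00183).

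The bantam microRNA mir-ban (3L:642208-642288), which promotes growth and survival, held 895, 743 and 288 CPM in Dam-Sd, against 53.5, 42.5 and 33.5 CPM in Dam of Set 1. It held 357, 631 and 589 CPM in Yki-Dam, against 23.1, 51.4 and 50.5 CPM in Dam of Set 2. The difference of 0.24 ± 0.47 was smaller than its error. The other fixed genes did not pass. Diap1, an inhibitor of caspases, differed by 0.41 ± 0.37 (adjusted p = 0.55) and kibra, an upstream activator of the kinases, by 0.41 ± 0.33 (adjusted p = 0.493). With gene ends only kibra had 1.79 (adjusted p = 0.0141). Mer, the partner of Kibra and Expanded, had -0.05 ± 0.30, and the kinase gene wts had 0.03 ± 0.26 (0.65 against a common Dam control, adjusted p = 0.022). The growth gene Myc had -0.60 ± 0.30 (adjusted p = 0.254). CycE, the cyclin of S-phase entry, had 0.96 ± 0.36 (adjusted p = 0.135, and 0.0224 with the block). Against a common Dam control it had -0.08. The homeobox gene hth, which Yki uses as a partner in eye progenitors, had 0.48 ± 0.32 (adjusted p = 0.396). Trl, which encodes the GAGA factor, had 1.12 ± 0.45 (adjusted p = 0.158, and 0.00938 with the block). The JNK phosphatase gene puc had 0.12 ± 0.29. Without Dam-Sd replicate 3 the differences of kibra (adjusted p = 0.0456), Diap1 (0.0474), CycE (0.0042), hth (0.0075) and Trl (0.0267) passed, all higher in Sd. With all libraries and the slope between the folds removed, kibra (-0.53), Diap1 (-0.45) and hth (-0.11) lay below 0. CycE (0.53) and Trl (0.58) stayed above it.

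Of 36 measured Hippo pathway components only Pez was called in the main edgeR fit, beside 3.30% of all windows called either way. With the block 2 components were higher and 1 lower, beside 4.78% and 4.81% of all windows. Pez (2L:6332881-6338671) encodes a tyrosine phosphatase that works with Kibra to restrain Yki. Its window held 25.3, 20.99 and 22.8 CPM in Dam-Sd and 33.6, 25.9 and 34.4 CPM in Dam of Set 1, while Yki-Dam held 70.0, 48.9 and 46.5 CPM and Dam of Set 2 held 37.7, 37.2 and 30.3 CPM. Dam-Sd lay below its Dam libraries and Yki-Dam above its own. The difference was -1.09 ± 0.26 (adjusted p = 0.0273), and it did not pass without the 1 kb flanks (-0.98, adjusted p = 0.165). Among 28 chromatin partners of Yki, 4 were lower in Sd and none higher, beside 2.11% and 1.19% of all windows. DESeq2 called 2 lower and 1 higher, beside 3.07% and 5.79% of all windows. The 4 were trr, which encodes a histone H3K4 methyltransferase (-1.14 ± 0.28), MED1, a Mediator subunit (-0.99 ± 0.26), nej, the fly CBP acetyltransferase (-0.98 ± 0.26), and Bap55, a Brahma complex subunit (-1.33 ± 0.31). Without the flanks Bap55 had -0.40 and was not called, and trr was not called either (-1.16, adjusted p = 0.123). MED1 was not called against a common Dam control (-0.44, adjusted p = 0.102). The nej window was called higher than Dam in Yki (0.66) and not called in Sd (-0.32). The median of the list was -0.08, and 0.12 with DESeq2 size factors.

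**Figure D2:**
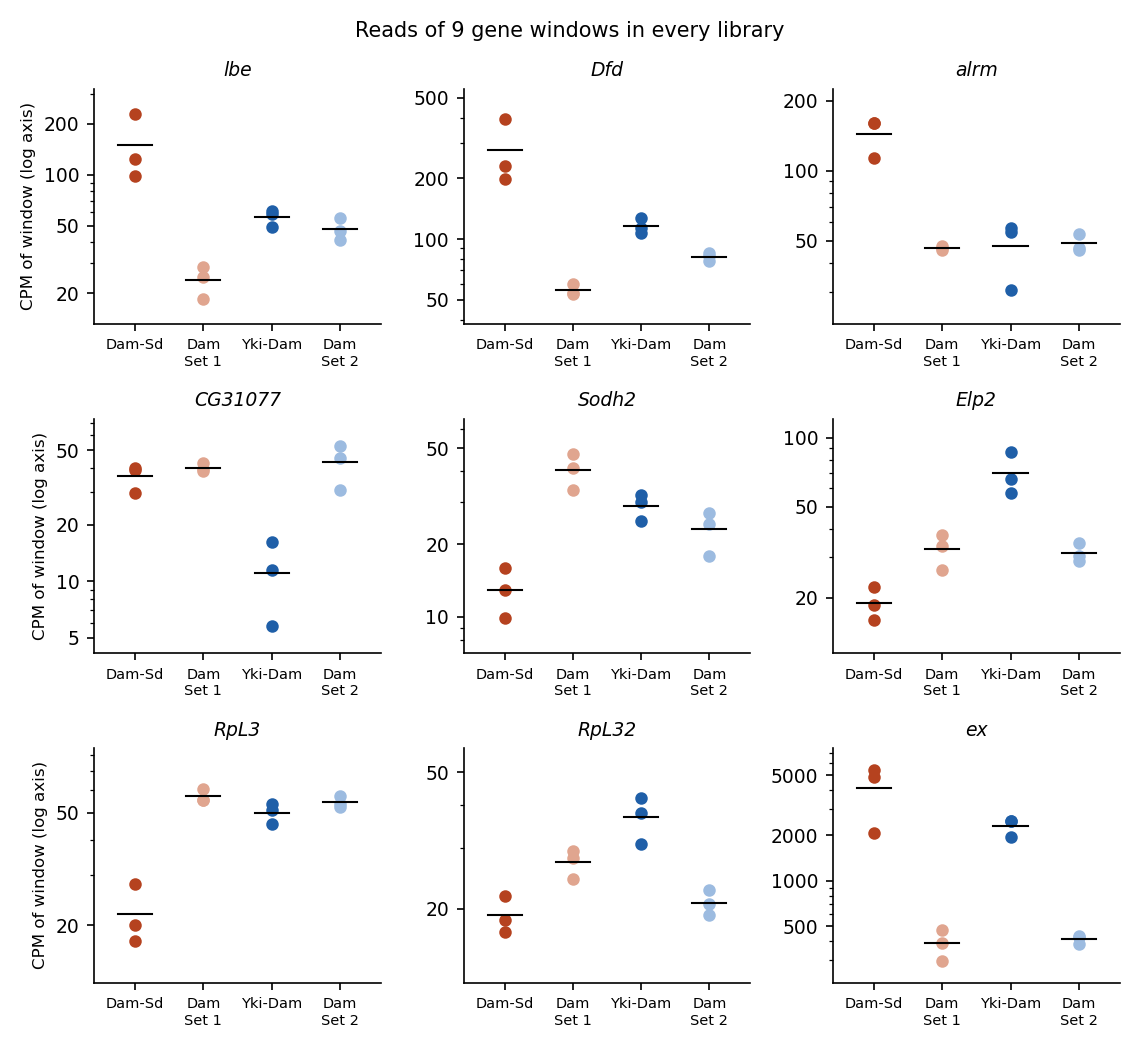
CPM of 9 gene windows (vertical axes, log scale) in the 3 libraries of Dam-Sd, Dam of Set 1, Yki-Dam and Dam of Set 2 (points), with the group mean as a bar. At lbe, Dfd and alrm the Dam-Sd libraries stand above all others, at CG31077 the Yki-Dam libraries stand below all others, and at Elp2 they stand above all others. At Sodh2 and RpL3 the Dam-Sd libraries stand below all others. At RpL32 the Dam-Sd libraries lie below their Dam libraries and the Yki-Dam libraries above theirs. At ex both fusions stand above both Dam sets.

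The window of lbe (ladybird early, 3R:21441577-21446537), a homeobox gene of the ladybird pair, held 229.8, 124 and 97.8 CPM in Dam-Sd and 28.6, 25.0 and 18.5 CPM in Dam of Set 1. In Yki-Dam it held 58.7, 61.4 and 48.9 CPM, against 55.9, 46.8 and 41.3 CPM in Dam of Set 2. Each Dam-Sd library exceeded every other library, and the Yki-Dam libraries overlapped their Dam libraries. The difference was 2.42 ± 0.35 (5.34-fold, adjusted p = 0.00275). The Dam libraries of Set 1 lay below those of Set 2 here (log2 -0.998), and against a common Dam control the difference was 1.42 (adjusted p = 0.00111). The neighbouring gene lbl (ladybird late, 3R:21409979-21434133) had 1.36 ± 0.34 (adjusted p = 0.0326) and was higher than Dam in both fusions.

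Dfd (Deformed, 3R:6791836-6802428), the Hox gene of the maxillary head segment, held 395, 230.1 and 199 CPM in Dam-Sd and 60.1, 54.3 and 53.3 CPM in Dam of Set 1. In Yki-Dam it held 113, 127 and 107 CPM, against 85.6, 78.4 and 82.1 CPM in Dam of Set 2. Every library of both fusions exceeded its Dam libraries, although the Yki fold of 0.50 was not called (adjusted p = 0.0768). The difference was 1.80 ± 0.31 (adjusted p = 0.00612). The LIM-homeobox gene ap (apterous, 2R:5706202-5727525) had 1.29 ± 0.28 (adjusted p = 0.0182), with 891, 618 and 548 CPM in Dam-Sd, 264, 231 and 193 CPM in Dam of Set 1, 433, 398 and 399 CPM in Yki-Dam and 398, 299 and 308 CPM in Dam of Set 2. The Hox gene pb (proboscipedia, 3R:6707800-6742063) had 0.93 ± 0.25 (adjusted p = 0.0474) but 0.21 against a common Dam control (adjusted p = 0.452), and it did not pass without the flanks (1.04, adjusted p = 0.052). Of 44 genes of eye-antennal specification, ap and Dfd were called, and with the block 9 were higher and 1 lower. Of 12 Hox genes, Dfd and pb were called. Of all windows 1.19% were called higher, and with the block 4.78% were higher and 4.81% lower. DESeq2 called 6 of the 44 and 3 of the 12, all higher, beside 5.79% of all windows.

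Other high windows were of genes with diverse roles or none given. CG46468 (2L:9548258-9565438) held 578, 379.7 and 308 CPM in Dam-Sd and 89.0, 93.8 and 105 CPM in Dam of Set 1. It held 66.7, 93.1 and 110.1 CPM in Yki-Dam and 67.8, 84.9 and 89.9 CPM in Dam of Set 2. The Yki-Dam libraries overlapped their Dam libraries, and the difference was 1.98 ± 0.33 (adjusted p = 0.00612). With gene ends only it was 0.33 and did not pass (adjusted p = 0.823). Its window overlaps that of jp (junctophilin), which had nearly the same difference (1.97). CG15890 on the X chromosome had 2.18 ± 0.42, the cecropin gene CecB, which encodes an antimicrobial peptide, 1.96 ± 0.46, and NijC, which encodes a Ninjurin membrane protein, 1.93 ± 0.34. CG13078, CG32191, CG17027 and CG33543 had 1.82 to 1.91. Members of 1 gene family with near-identical copies, such as the cecropins, share reads that counting can split, so CecB is uncertain. The astrocyte marker alrm (3R:25381065-25382781) held 160.2, 160.5 and 113 CPM in Dam-Sd and 45.4, 47.3 and 46.3 CPM in Dam of Set 1, against 30.8, 54.7 and 56.8 CPM in Yki-Dam and 53.7, 45.7 and 46.6 CPM in Dam of Set 2. Every Dam-Sd library exceeded every other library, and the Yki-Dam libraries overlapped their Dam libraries. The difference was 1.68 ± 0.28 (adjusted p = 0.00612), and alrm was the only call among 13 glial markers, beside 1.19% of all windows called higher. The alrm window lies inside that of Fur1, which was not called (0.67, adjusted p = 0.139).

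Where both fusions gained, Sd gained more at 33 windows. Named examples were Cad99C, a cadherin gene (Sd 2.37, Yki 1.01, difference 1.35 ± 0.33), Ace, which encodes acetylcholinesterase (2.17, 0.83 and 1.34 ± 0.34), and CG32845 (2.86, 1.47 and 1.39 ± 0.35). Against a common Dam control CG32845 was not called (0.61, adjusted p = 0.0944), and with gene ends only Ace was not (0.14, adjusted p = 0.836).

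At some higher windows Yki lay below its Dam control. CG31077 (3R:26999752-27002961) held 29.6, 40.4 and 39.5 CPM in Dam-Sd and 38.6, 39.6 and 42.8 CPM in Dam of Set 1, while Yki-Dam held 5.78, 11.4 and 16.1 CPM and Dam of Set 2 held 30.8, 52.8 and 45.6 CPM. Dam-Sd overlapped its Dam libraries, and every Yki-Dam library lay below every other library. The difference was 1.81 ± 0.41 (adjusted p = 0.0236). CG31259, Mid1 and Xpd, the last a helicase of the transcription factor TFIIH, were of the same class with 1.24, 1.15 and 0.96. Mid1 lost its call against a common Dam control (0.37, adjusted p = 0.195). Of the windows that were higher than Dam in Sd and lower in Yki, Jhbp14 had 1.84 ± 0.34, the metal transporter gene Mvl 1.38 ± 0.25, CG15431 1.38 ± 0.32 and the octopamine receptor gene Octbeta2R 1.31 ± 0.26. With gene ends only CG15431 (0.13, adjusted p = 0.889) and Octbeta2R (0.25, adjusted p = 0.877) lost their calls.

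Less Sd than Yki was measured at Sodh2. Sodh2 (sorbitol dehydrogenase, 3R:10876384-10878257) held 9.86, 12.8 and 15.9 CPM in Dam-Sd and 41.3, 33.5 and 47.4 CPM in Dam of Set 1. In Yki-Dam it held 29.8, 32.0 and 24.8 CPM, against 27.0, 17.8 and 24.3 CPM in Dam of Set 2. Every Dam-Sd library was below every other library, and Yki-Dam overlapped its Dam libraries. The difference was -1.98 ± 0.29 (3.96-fold lower, adjusted p = 0.00321). Dam of Set 1 stood 0.82 above Set 2 there, and against a common Dam control the difference was -1.16 (adjusted p = 0.00142). The adjacent CG14695, which shares ends with Sodh2, had -2.35 (adjusted p = 0.00275).

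Elp2 (2R:10645735-10648634), which encodes a subunit of the Elongator complex, parted in both directions at once. It held 22.4, 16.0 and 18.6 CPM in Dam-Sd and 33.7, 26.3 and 37.5 CPM in Dam of Set 1. It held 86.6, 57.4 and 66.1 CPM in Yki-Dam and 30.5, 28.9 and 34.8 CPM in Dam of Set 2. Dam-Sd fell below its Dam libraries and Yki-Dam rose above its own, with folds of -0.78 and 1.16. The difference was -1.94 ± 0.28 (adjusted p = 0.00275), it was -1.88 against a common Dam control, and Dam of Sets 1 and 2 differed by only 0.05 at this window. The adjacent CG12934, which shares ends with Elp2, had -2.91. With only the 12 libraries fitted, Elp2, Sodh2 and lbe were among the 10 windows called, each at an adjusted p of 0.0464. CG12934 and CG14695 were among the 10 too.

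GCS2alpha, which encodes a glucosidase of glycoprotein folding, had -1.78 ± 0.32, eIF3b, a translation initiation factor gene, -1.40 ± 0.26, and Grp170, an endoplasmic reticulum chaperone gene, -1.37 ± 0.25. The RNA-binding protein gene qkr54B had -1.38 ± 0.28. The windows CG12920, CG7912, CG14855, CG9522, CG32855 and CG4332 ranged between -1.57 and -1.37. In GCS2alpha, eIF3b, Grp170 and qkr54B Sd was called lower than Dam (-1.81 to -1.23) and Yki was not called (-0.17 to 0.14). Without the flanks Grp170 had -2.05 and eIF3b -1.79. Against a common Dam control the differences were smaller, although still called. They were -1.09 at GCS2alpha, -0.75 at eIF3b, -0.78 at Grp170 and -0.72 at qkr54B. Dam of Set 1 stood 0.59 to 0.69 above Set 2 at these windows.

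At other lower windows Yki was called higher than Dam and Sd was not called. CG5391 (3R:22333088-22334150) held 71.9, 81.3 and 71.4 CPM in Dam-Sd and 59.5, 66.6 and 69.6 CPM in Dam of Set 1, against 156, 131 and 141 CPM in Yki-Dam and 54.4, 46.5 and 53.9 CPM in Dam of Set 2. Every Yki-Dam library exceeded every other library. Every Dam-Sd library also exceeded its Dam libraries, although the Sd fold of 0.20 was not called (adjusted p = 0.278). The difference was -1.27 ± 0.21 (adjusted p = 0.00612). The cuticle protein gene Cpr47Ec (-1.36 ± 0.28), CG15247 (-1.34 ± 0.28) and CG9522 (-1.47 ± 0.29) were of the same class. Their Yki folds were 1.63, 1.36 and 1.66, and their Sd folds 0.27, 0.02 and 0.19. Against a common Dam control their differences were -0.66, -0.81 and -0.73, all still called. Dam of Set 1 stood 0.70, 0.54 and 0.74 above Set 2 at these windows. The CG9522 window held 2 peaks of Sd and 1 of Yki in the authors' deposited lists.

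Ribosomal protein genes, which are highly transcribed in growing tissue, lay on the lower side. Of the 34 in the list 5 were lower in Sd and none higher (median -0.32, and -0.12 with DESeq2 size factors), where 2.11% of all windows were lower. DESeq2 called 5 lower and 3 higher, beside 3.07% and 5.79% of all windows. RpL3 (3R:11221894-11225173) held 17.5, 20.1 and 27.9 CPM in Dam-Sd and 60.5, 55.3 and 55.7 CPM in Dam of Set 1, against 51.0, 53.5 and 45.7 CPM in Yki-Dam and 53.6, 57.1 and 52.5 CPM in Dam of Set 2. All Dam-Sd libraries were below all others, and the other 3 groups lay close together. The difference was -1.27 ± 0.24 (adjusted p = 0.0115), with Dam of Set 1 at 0.07 above Set 2. RpL32 (3R:30045229-30046161) held 18.6, 17.1 and 21.8 CPM in Dam-Sd and 29.5, 24.4 and 28.2 CPM in Dam of Set 1. It held 31.0, 42.0 and 38.1 CPM in Yki-Dam and 22.8, 19.2 and 20.7 CPM in Dam of Set 2. Here Sd fell and Yki rose, and the difference was -1.34 ± 0.26 (adjusted p = 0.0115). CG7943, which shares ends with RpL32, had -1.26 (adjusted p = 0.0135). RpL40 had -1.83 ± 0.40 and lost its call without the flanks (-1.59, adjusted p = 0.0638).

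Signalling lists held few calls. Among 35 Wingless, Dpp and Hedgehog genes, cos, Su(fu) and en were lower, beside 2.11% of all windows. The kinesin-like protein of cos and the inhibitor Su(fu) both hold back the Hedgehog effector Ci, and en encodes the homeodomain protein Engrailed. The window of cos (2R:7382176-7387115) held 6.36, 6.75 and 11.3 CPM in Dam-Sd and 35.8, 29.0 and 42.0 CPM in Dam of Set 1, against 21.3, 14.0 and 13.9 CPM in Yki-Dam and 26.3, 18.7 and 17.3 CPM in Dam of Set 2. Dam-Sd lay below all other libraries (difference -1.79 ± 0.37, adjusted p = 0.0158). Su(fu) had -1.38 ± 0.33 and lost its call against a common Dam control (-0.64, adjusted p = 0.0635), and en had -1.04 ± 0.28. Without the flanks neither passed (Su(fu) -1.44, adjusted p = 0.0675, and en -1.55, adjusted p = 0.0514). With the block this list held 4 higher and 6 lower, beside 4.78% and 4.81% of all windows. DESeq2 called 3 of its genes higher and 4 lower, beside 5.79% and 3.07%. Sos, the exchange factor of Ras, was the only call among 24 EGFR pathway genes (1.26 ± 0.35, adjusted p = 0.0494), with Sd not called (0.51) and Yki below Dam (-0.75). It did not pass without the flanks (0.79). In the main edgeR fit 1.19% of all windows were called higher. With the block 3 of the EGFR pathway genes were higher and 0 lower, beside 4.78% and 4.81% of all windows.

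In the main edgeR fit no member was called in several lists. Among 32 Notch pathway genes (median 0.45), 7 had an unadjusted p below 0.05 and DESeq2 called 4, all higher, beside 21.3%, 5.79% higher and 3.07% lower over all windows. The JNK pathway and AP-1 targets (34 genes, median 0.22) held 5 and 3, the JAK-STAT genes (12, 0.17) 1 and 1, the ecdysone timing genes (21, 0.43) 4 and 2, and the cell death genes (19, 0.12) 1 and 0. The cell cycle and growth genes (35, -0.49) held 13 and 4, the mitochondrial respiratory chain (35, -0.30) 10 and 1, the actomyosin genes (36, -0.07) 7 and 2, and the epithelial polarity and junction genes (34, -0.06) 3 and 1. The 4 DESeq2 calls in the cell cycle list were higher in Sd, against the sign of the list median. With the block the Notch list held 6 higher and 1 lower, the cell cycle list 4 and 5, and the actomyosin list 1 and 4. The JNK list held 2 and 0, the ecdysone list 2 and 1, and the cell death list 1 and 1. The respiratory chain held 2 and 3, the polarity list 0 and 1, and the JAK-STAT list 0 and 0. Of all windows 4.78% were higher and 4.81% lower with the block. Of 22 Polycomb group genes Caf1-55, which encodes a histone-binding subunit, was lower (-1.13 ± 0.28, median of the list -0.50), and with the block 6 were. Of all windows 2.11% were lower, and 4.81% with the block. Without the flanks Caf1-55 did not pass (-1.24, adjusted p = 0.0557). Among 19 heat shock genes Hsp83, the fly Hsp90 gene, was lower (-0.89 ± 0.21, and -0.95 without the flanks, adjusted p = 0.0622). Hsp70Aa was called too (-1.91 ± 0.52), but it has near-identical copies, Dam of Set 1 stood 1.86 above Set 2 there, and against a common Dam control it had -0.05. Without the flanks it did not pass (-1.69, adjusted p = 0.233).

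Lists of markers of other cell types gave isolated calls, where 3.30% of all windows were called either way. In the main edgeR fit the co-receptor gene Ir25a was the only call among 40 chemosensory receptors (-1.46 ± 0.29). It lost that call without the flanks (-0.89, adjusted p = 0.189). Of the 40, 11 had an unadjusted p below 0.05, beside 21.3% of all windows. DESeq2 called 4 of them higher and 2 lower, beside 5.79% and 3.07% of all windows. With the block 2 were higher and 2 lower, beside 4.78% and 4.81%. The larval serum protein gene Lsp1beta was the only call among 15 fat body markers (-1.80 ± 0.39), and it did not pass without the flanks (-1.79, adjusted p = 0.135). None was called in the main edgeR fit among 26 neuron markers (median 0.34), 15 haemocyte markers (-0.20), 15 muscle markers (-0.05) and 13 germline markers (0.12). In these lists 3, 3, 6 and 1 had an unadjusted p below 0.05, and DESeq2 called 2, 1, 2 and 1, all higher, beside 21.3% and 5.79% of all windows. With the block 2, 1, 1 and 1 were higher, and 1 muscle marker was lower, beside 4.78% and 4.81% of all windows.

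**Figure D3:**
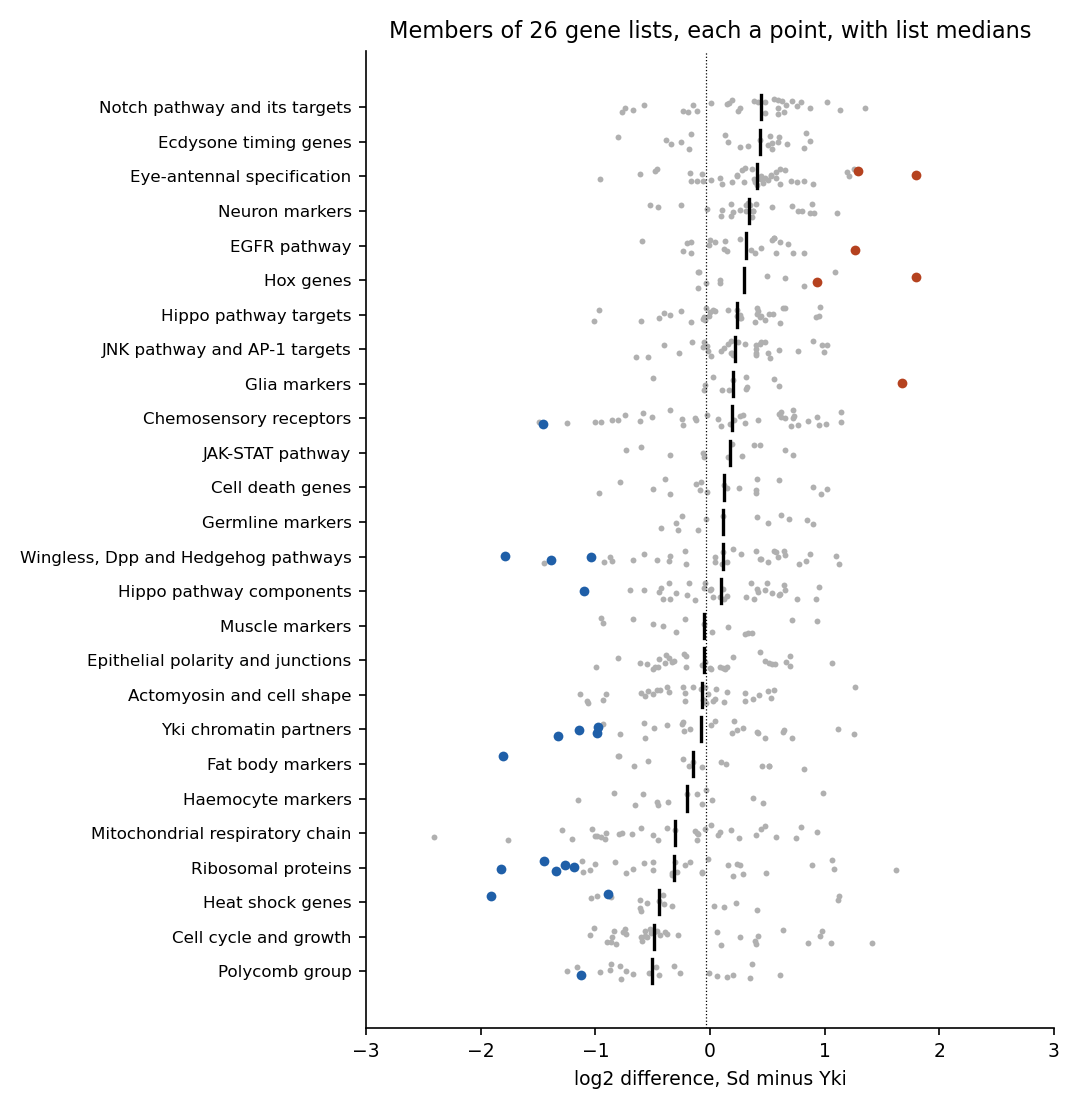
Log2 difference, Sd minus Yki (horizontal axis), of the measured members of 26 gene lists (rows), each a point, with the list median as a bar and the median of all windows as a dotted line. Red members are called higher and blue members lower in Sd, and grey ones did not pass. Hippo pathway targets hold no coloured point, and ribosomal proteins and Yki chromatin partners hold blue ones only by edgeR (DESeq2 called 3 and 1 of them higher).

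Along single genes the difference lay in different places. In bins of 1 kb, measured from the left end of the gene, with 0.5 CPM added before taking logs, the lbe signal of both fusions peaked between 1 and 2 kb. That bin held 68.9% of the window's Dam-Sd reads and 67.5% of its Yki-Dam reads, at 104 CPM in Dam-Sd and 38.0 CPM in Yki-Dam, against 14.8 CPM in Dam of Set 1 and 32.1 CPM in Dam of Set 2. The difference was above 1 in 4 of 6 bins with ends. At CG46468 the bin from 12 to 13 kb held 83.6% of the Dam-Sd reads, with 353 CPM in Dam-Sd and 55.9 CPM in Yki-Dam, so most of the signal came from 1 bin. At Dfd the bin from 5 to 6 kb held 142 CPM in Dam-Sd and 42.2 CPM in Yki-Dam, and 5 of 11 bins had differences above 1.

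The lower genes had other shapes. In Elp2 the bin from 0 to 1 kb held 8.08 CPM in Dam-Sd and 38.5 CPM in Yki-Dam, and the bin at the right end held 5.11 CPM in Dam-Sd and 24.1 CPM in Yki-Dam. In 4 of 5 bins the difference was below -1. In RpL3 4 of 6 bins were below -1, with Dam-Sd lowest against Dam from 1 to 2 kb (log2 -2.19, where Yki had -0.31). In ex both fusions had the most reads between 3 and 4 kb, and of 19 bins 4 had differences above 1 and 2 below -1.

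**Figure D4:**
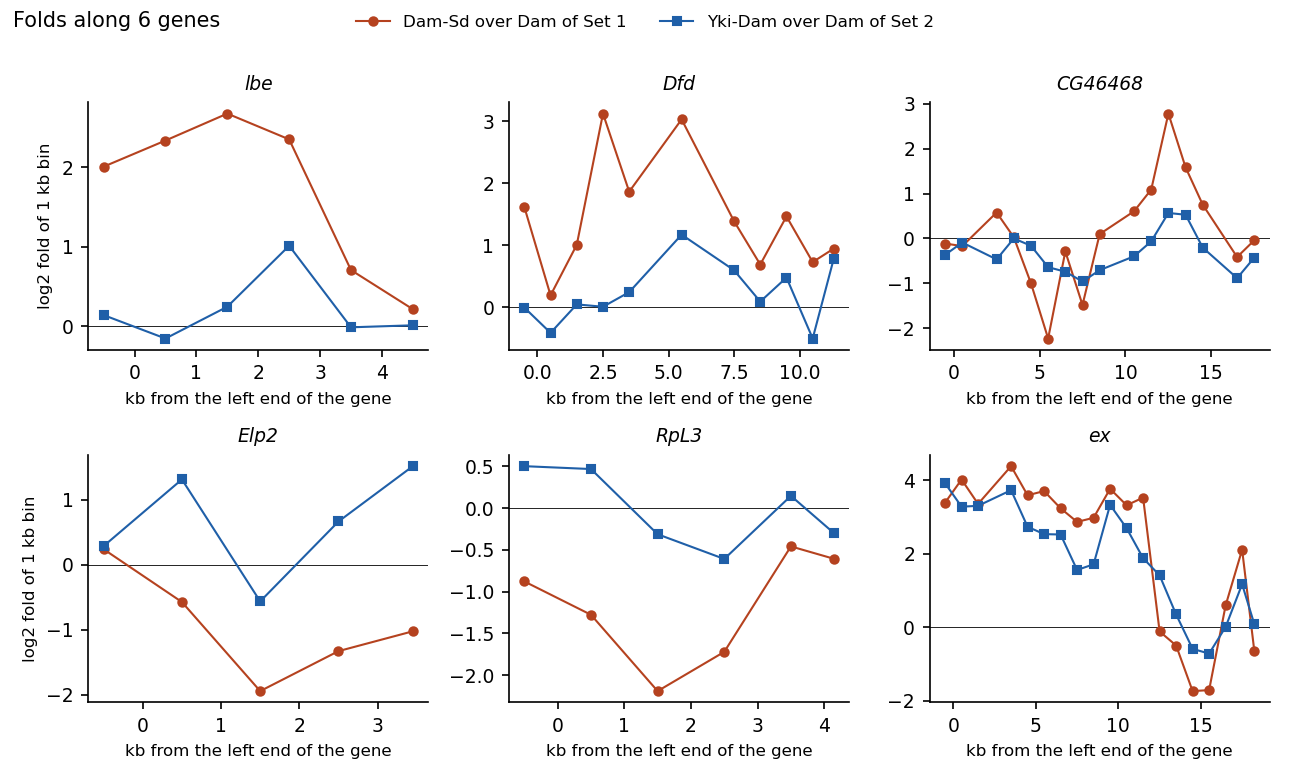
Log2 fold over the own Dam set (vertical axes) of Dam-Sd (red circles) and Yki-Dam (blue squares) in 1 kb bins along 6 genes, by distance in kb from the left end of the gene (horizontal axes), from group means of log2(CPM + 0.5). Only bins with GATC ends are shown. At lbe and Dfd the red line lies above the blue in the bins shown, at CG46468 it stands well above it in the bin from 12 to 13 kb, and at Elp2 and RpL3 it lies below it, by only 0.05 at the left flank of Elp2. At ex both lines are high over the left 12 kb and lower after it.

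The authors' deposited peak lists were set beside the windows, as a description, since they rest on the same libraries. Of the 167 higher windows 84 held a peak of Sd only, 0 a peak of Yki only, 33 both and 50 neither. Of the 297 lower windows 3 held a peak of Sd only, 45 of Yki only, 24 both and 225 neither. Among all windows the shares were 9.73% for Sd only, 4.20% for Yki only, 16.7% for both and 69.4% for neither.

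The difference moved with the signal of Dam alone, read from the Dam libraries of Set 3. These do not enter the difference itself, but they share the fit that gave the calls. The median Set 3 signal per GATC end was 1.59 CPM in the higher windows, 0.63 CPM in the lower ones and 0.69 CPM in all. With windows split by that signal into 10 equal groups, the median difference was 0.20 in the lowest group, -0.29 in the fourth and 0.48 in the highest. The highest group held 44 higher and 3 lower windows, and the fifth held 8 and 60. After removing the slope between the folds the highest group had 0.18 and the lowest 0.44. What this has to do with the calls was not tested.

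The 2 Dam sets differed too. Between Set 1 and Set 2, 430 windows were called (3.05%, 1.96% higher in Set 1 and 1.09% lower), and 1610 (11.4%, 5.81% higher and 5.61% lower) with the adjusted quasi-deviance of edgeR's newer method, a setting chosen after the data were seen. Set 1 minus Set 2 had a median of -0.21 in the higher windows and 0.50 in the lower ones, against 0.04 in all, and these libraries enter the difference with the opposite sign. Against a common control no Dam set enters the difference itself. There 376 of the 464 windows were called with the same sign, and 461 had the same sign. In all, 1300 windows were higher (9.23%) and 1148 lower (8.15%). The part of the Dam sets in the remaining calls was not tested further.

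The X chromosome was noticed after the values were seen. It held 5 higher and 70 lower windows of 2234, against 162 and 226 of 11759 on the autosome arms. With the block the X had 46 and 133, and the arms 624 and 542. With 1 library left out the X had 18 (without Dam of Set 2 replicate 3) to 211 lower windows (without Dam-Sd replicate 3). With only the 12 libraries it had 0 higher and 1 lower. The median difference was -0.20 on the X, against -0.00 on the arms. In single libraries the median X window minus the median autosome window, as log2 ratio to the own Dam set, was -0.01, -0.04 and -0.05 in Dam-Sd and 0.12, 0.16 and 0.20 in Yki-Dam. The groups did not overlap, but the 3 libraries of a group share the mean of 1 Dam set, so no test is given. In log2 CPM the same measure spread over -0.41 to -0.06 between the Dam libraries of Set 1 themselves. The gap between the X and the arms was -0.10 against a common Dam control, and leaving out 1 library gave -0.30 (Dam of Set 1 replicate 3) to -0.13 (Dam of Set 1 replicate 1).

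**Figure D5:**
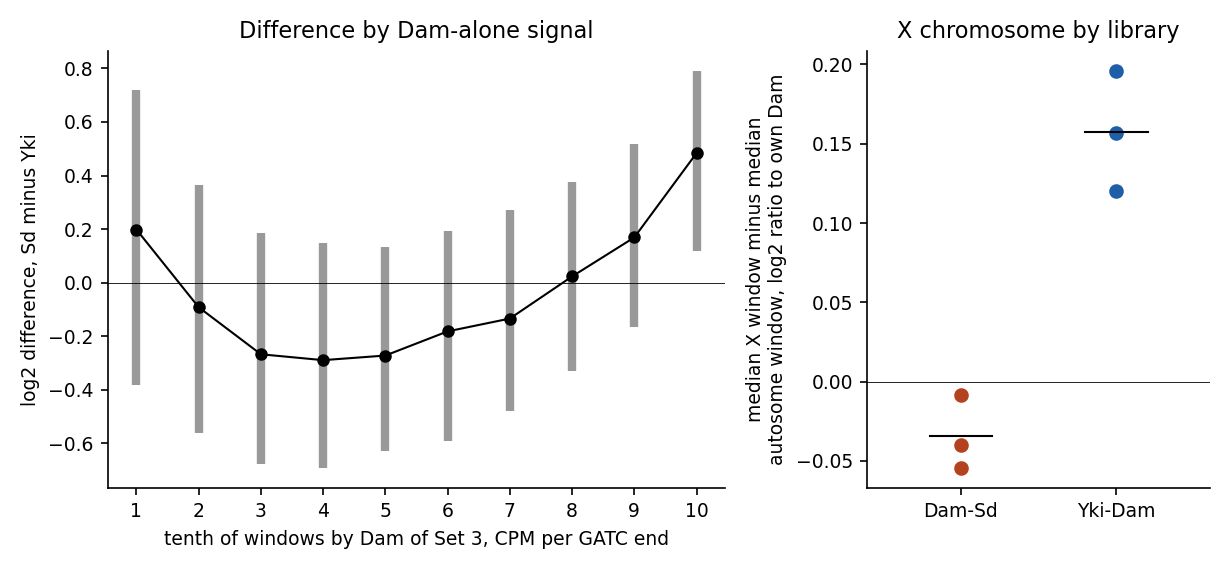
Left, median log2 difference, Sd minus Yki (vertical axis), with the middle 50% of windows as grey bars, in 10 equal groups of windows ordered by the CPM per GATC end of Dam of Set 3 (horizontal axis). Right, median X window minus median autosome window of the log2 ratio to the own Dam set (vertical axis) in the 3 Dam-Sd and 3 Yki-Dam libraries (points, with means as bars). The highest group stands at 0.48, and the Dam-Sd libraries lie below 0 and the Yki-Dam libraries above it.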

How the data were processed

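The authors' deposited table gave whole-number read counts at 767321 ends of GATC sites in 18 libraries. The submitters' processing notes name Subread, featureCounts, edgeR, bedtools and the build dm6 without versions. The authors' deposited peak lists were used for their positions; no source used here gives the Dam libraries behind them.

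Counts were summed over windows of RefSeq gene spans with 1 kb flanks. Windows passed filterByExpr with a minimum count of 10, were scaled with TMM factors (trimmed means of log ratios) and were fitted as 6 groups in edgeR 4.0.16 (R 4.3.3, 12 residual degrees of freedom), after a test on simulated data. DESeq2 1.42.0 was an alternative. Standard errors are the log2 difference over the square root of F. Library sizes were the reads summed over windows. This was decided after its calls (167 higher and 298 lower, with yki) and those with total reads (245 higher and 225 lower, without sd and yki) had both been seen, to match an earlier treatment of these data and edgeR's default.

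Replicate numbers paired the fusions with their Dam sets. Correlations of deviations from group means were 0.56, 0.37 and 0.37 for Dam-Sd and Set 1 and 0.62, 0.39 and 0.31 for Yki-Dam and Set 2, although Dam replicate 2 of Set 2 gave 0.36 with Yki-Dam replicate 3.

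The members and the 26 lists were chosen with earlier results of these data known. Named genes are 11 fixed genes, the 12 highest and 12 lowest windows that were called with and without flanks, had above-median CPM and had separated libraries, up to 4 per class and up to 3 per list. Genes outside this rule (jp, Fur1, CG12934, CG14695, CG7943, nej and those of the closing section) were named after their values were seen. Intervals cover the spread between libraries only.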

Additional observations from a re-analysis of the deposited data

How the results depend on the processing

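The counts of windows (167 higher and 297 lower) moved by more than 1.5 times in these settings, higher before lower where both moved. They were 816 higher with DESeq2's Wald test, 274 and 177 with DESeq2 size factors, 51 higher with library size only, 1300 and 1148 with a common Dam control, 86 and 191 without the flanks, 13 and 30 at an adjusted p below 0.01, 673 and 677 with the replicate number as a block, and 2 and 8 with only the 12 libraries, where 2096 windows had an unadjusted p below 0.05. Leaving out 1 library gave 43 to 1727 higher and 87 to 1031 lower windows, the extremes without Dam of Set 1 replicate 3 (43), Dam of Set 2 replicate 3 (87) and Dam-Sd replicate 3 (1727 and 1031). The share of calls that were higher was 36.0%, but 60.8% with DESeq2 size factors, 65.3% with DESeq2's test, 52.1% with TMM on total reads and 18.9% with library size only. The cause of these moves was not tested. Of the 464 called windows, 461 kept their sign against a common Dam control, 458 of 463 with gene ends only and 439 of 455 without the flanks. Among the named genes signs turned only at uncalled ones: Mer (0.13 with DESeq2 and with its size factors, 0.037 with total reads, 0.12 with a common Dam control and with gene ends only, and -0.34 to 0.17 with 1 library left out), Diap1 (-0.00096) and CycE (-0.085) with a common Dam control, mir-ban (-0.17), wts (-0.33) and puc (-0.25) with library size only, wts with 1 library left out (-0.094 to 0.40) and hth with gene ends only (-0.81). After removing the slope between the folds, kibra (-0.53), Diap1 (-0.45), mir-ban (-0.99), wts (-0.57), puc (-0.38) and hth (-0.11) turned too. There ex had 0.09. Under the block, which leaves 4 residual degrees of freedom, ex, CycE and Trl gained a call and all 56 named calls were kept. Of the 56, only 3 kept their call with only the 12 libraries. With library size only 35 did, and without Dam of Set 1 replicate 3 29 did. Total reads, gene ends and the adjusted quasi-deviance were chosen after seeing the data. A window around gene starts alone was not run, because the gene table used gives no strand. The window of cos held only 6.36 to 11.3 CPM in Dam-Sd. What library depth has to do with such windows was not tested.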

Other observations

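Ribosomal proteins stood out beyond the list once all symbols of the family were counted, a choice made after their values were seen. Of 85 measured cytosolic ribosomal protein genes 12 were lower in Sd (14.1%, beside 2.11% of all windows), and 64 of 85 had a difference below 0 (median -0.37). The differences of the 12 lay between -2.05 and -1.18, with RpS24 (-2.05 ± 0.46) and RpL28 (-1.95 ± 0.25) the lowest. With the replicate block 4 of the 85 were higher and 17 lower, beside 4.78% and 4.81% of all windows. Against a common Dam control 4 were higher and 25 lower, beside 9.23% and 8.15% of all windows, with 10 of the 12 called. Of 73 mitochondrial ribosomal protein genes 1 was lower, and of 43 translation initiation factor genes 1 was. With the block the mitochondrial genes held 2 higher and 1 lower, and the initiation factor genes 0 and 6. Against a common Dam control they held 3 and 11, and 5 and 7, in the same order.

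A stretch of chromosome arm 3R held differences of opposite sign side by side. The windows of Su(fu) (3R:12689873-12691468), CG31347 and Arp1 had -1.38, -1.37 and -1.15, and those of CG14391 (3R:12694229-12694842) and NijC, directly to the right, had 2.34 and 1.93. All 5 were called. Sd was above Dam at CG14391 and NijC (2.63 and 1.78) and Yki at Su(fu), CG31347 and Arp1 (0.79 to 0.91).

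The 13 windows on the Y chromosome all had differences above 0 (0.76 to 1.99) with a smallest adjusted p of 0.0748. There Dam of Set 1 minus Dam of Set 2 had a median of -1.38, and against a common Dam control the median difference was 0.13. The lowest difference of all windows, -6.17, was at the Stellate repeat Ste:CG33239 on the X, which has near-identical copies, so its value is uncertain.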
